A study of Homo sapiens with 4 samples.

Results

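The enzymes described here are the 9 genes of serine synthesis and of the folate one-carbon cycle listed as PHGDH, PSAT1, PSPH, SHMT1, SHMT2, MTHFD1, MTHFD2, MTHFD1L and ALDH1L2. They were taken by gene symbol from a table of 35371 symbols, and all 9 were found. The table holds transcript levels measured by RNA-seq in A2780 cells, a long-established line from a human ovarian carcinoma, in 2D culture. It has 2 libraries from cells treated with GD-07, which the series names as an inhibitor of Myc, and 2 from control cells. Controls are labelled as having no treatment, whereas the series text speaks of a vehicle, and neither dose nor time is given in the sources used here. No label says whether the replicates were separate cultures. The p-values therefore reflect the spread among 4 libraries, and that spread may be technical.

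Serine is made from the glycolytic intermediate 3-phosphoglycerate by PHGDH, PSAT1 and PSPH in turn. SHMT2 in mitochondria and SHMT1 in the cytosol then split serine into glycine and a carbon unit that is carried on folate. In mitochondria MTHFD2 oxidizes that unit, and MTHFD1L releases it as formate or ALDH1L2 burns it to carbon dioxide. The cytosolic enzyme MTHFD1 takes formate back up for purine and thymidylate synthesis. Proliferating tumour cells usually run the mitochondrial half-cycle as the source of formate. MYC and the stress-response factor ATF4 are both known to activate genes of this pathway, and SHMT2, PHGDH, PSAT1 and MTHFD2 have been described among their targets.

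Values are TPM, a unit of transcript abundance corrected for length and by definition scaled to a fixed total per library. Sequencing depth cannot be read from this unit, and no counting interval is given. A level in TPM is a share of its library's transcripts, and in these bulk samples fewer cells expressing a gene and less RNA per cell cannot be told apart. The columns summed to 912781 and 918646 TPM with GD-07, against 918209 and 917531 TPM in controls, so the listed totals were not exactly equal. Mitochondrially encoded transcripts made up 2.52% and 6.52% of the TPM in GD-07 replicates 1 and 2, against 4.36% and 3.72% in control replicates 1 and 2, so GD-07 replicate 2 stood apart. Of 9 epithelial and ovarian markers, 2 averaged at least 1 TPM, with KRT18 at 4.40 to 5.82 TPM and EPCAM at 1.41 to 4.29 TPM. PAX8, WT1, MUC16 and SOX17 were at or near 0. Of 12 markers of blood, stromal and endothelial cells, 4 averaged at least 1 TPM and CD3E was listed at 0 throughout. The summed level of those 12 was 26.5 and 39.2 TPM with GD-07, against 50.9 and 41.6 TPM in controls, most of it COL1A1. The part of these markers in the results below was not tested. MYC itself had 29.1 and 23.6 TPM with GD-07, against 86.0 and 67.5 TPM in controls.

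Promoter sequence was available for 6 of the 9 genes in RefSeq windows on GRCh38.p14, each running from 250 bases before a start site to 50 after it. PSPH, SHMT2 and ALDH1L2 had no entry. The windows were searched on both strands for CACGTG, the E-box bound by MYC and MAX, and for TGATGNAA, the core of the composite element bound by ATF4 with C/EBP partners. Of 35116 RefSeq windows of this length, 7.26% held the first and 3.62% the second. MTHFD1 had an E-box in its window, and MTHFD1L had both motifs in 3 of its 4 windows, which overlap each other. No match was found in the windows of PHGDH, PSAT1, SHMT1 and MTHFD2, which says only that these letters are not in these windows. The windows of the pair of genes that fell with GD-07 are given with, for contrast, the MTHFD1L window chr6:150866236-150866535 with both motifs in capitals, the E-box at base -154 and the ATF4 element at base -129 from the start site. All are on the plus strand and are written from 5′ to 3′. The PHGDH window is chr1:119711684-119711983 and the MTHFD2 window is chr2:74198365-74198664. The PHGDH window lies inside the span given for that gene below, and the start of that span was not searched.
PHGDH: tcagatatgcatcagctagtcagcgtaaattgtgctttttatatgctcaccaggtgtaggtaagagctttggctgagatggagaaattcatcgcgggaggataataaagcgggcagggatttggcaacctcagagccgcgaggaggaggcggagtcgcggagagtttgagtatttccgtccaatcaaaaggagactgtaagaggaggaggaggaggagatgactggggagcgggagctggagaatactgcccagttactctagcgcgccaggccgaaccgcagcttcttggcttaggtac
MTHFD2: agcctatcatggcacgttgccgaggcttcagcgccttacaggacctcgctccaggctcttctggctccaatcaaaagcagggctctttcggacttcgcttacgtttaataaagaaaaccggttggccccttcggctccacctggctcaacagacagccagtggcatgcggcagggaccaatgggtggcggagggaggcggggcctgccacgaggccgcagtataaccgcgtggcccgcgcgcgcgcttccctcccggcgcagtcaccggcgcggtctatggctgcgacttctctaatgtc
MTHFD1L: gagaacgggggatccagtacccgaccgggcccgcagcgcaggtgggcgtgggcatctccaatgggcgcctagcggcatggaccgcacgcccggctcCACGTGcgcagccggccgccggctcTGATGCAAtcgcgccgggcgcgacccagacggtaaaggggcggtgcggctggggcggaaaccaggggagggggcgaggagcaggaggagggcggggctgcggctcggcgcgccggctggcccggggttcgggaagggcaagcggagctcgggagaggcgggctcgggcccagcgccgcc

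Whether GD-07 changed the transcript levels of these enzymes was tested with limma on log2(TPM + 1), over the 13063 genes that averaged 1 TPM or more. All 9 enzymes passed this filter. PHGDH and MTHFD2 fell, both to less than 50% of their control level, and none of the 9 rose at a Benjamini-Hochberg adjusted p under 0.05. Thus 2 of these 9 were called lower and 0 higher, where 3.19% of all genes tested were called lower and 2.02% higher, 5.21% in either direction. At an unadjusted p under 0.05 SHMT2 joined them, which made 3 lower and 0 higher, where 14.7% of all genes tested were lower and 10.1% higher at that threshold. The groups did not overlap in 5 enzymes that were lower with GD-07 and in 2 that were higher, where 30.5% and 25.3% of all genes did so. The median log2 fold change of the 9 was -0.27, beside -0.04 for all genes tested. Over all genes the split was 264 higher and 417 lower, but 383 higher and 395 lower after quantile normalization.

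**Figure D1:**
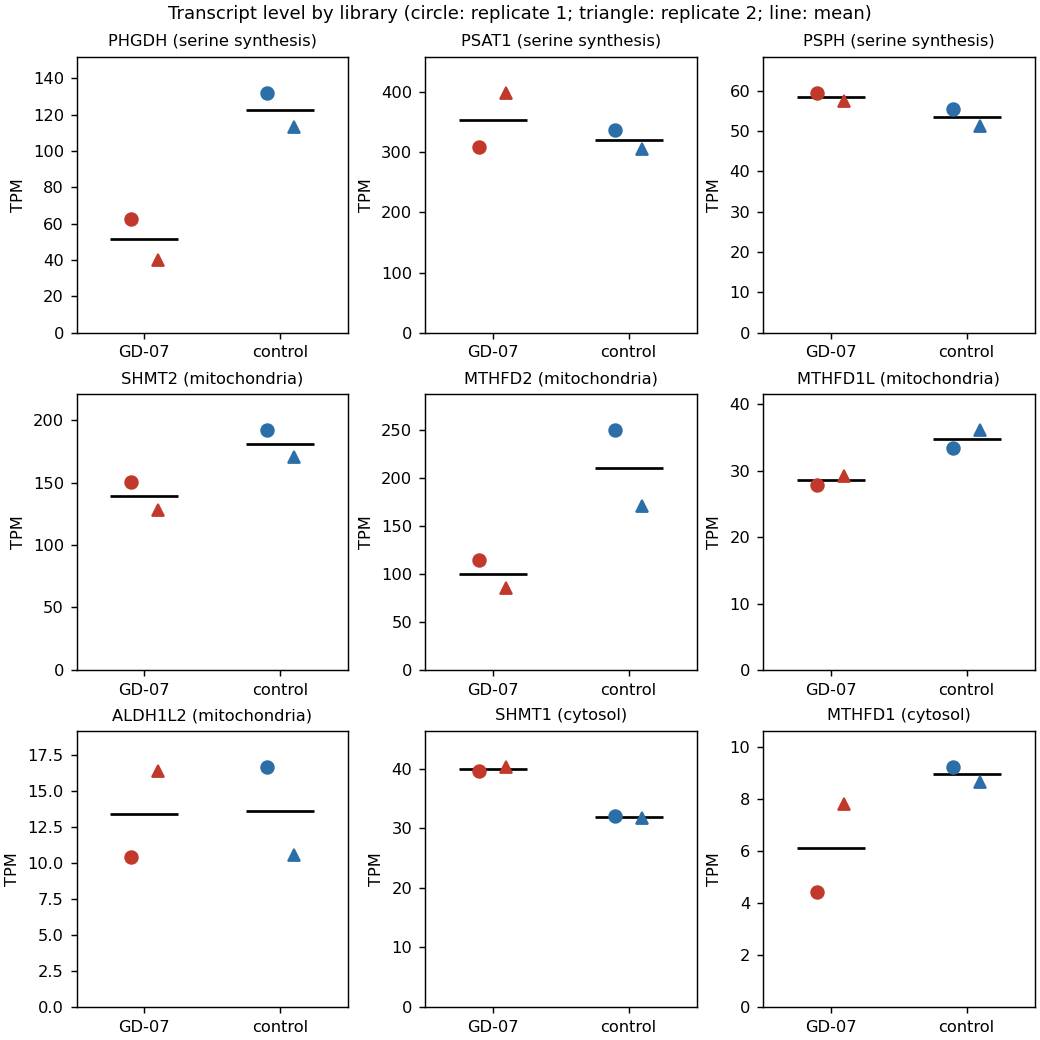
Transcript level in TPM (y axis, from 0) of each of the 9 enzymes in 2 GD-07 libraries (red, left) and 2 control libraries (blue, right), with the group mean as a line. PHGDH and MTHFD2 lie far below their control values with GD-07, PSAT1 and ALDH1L2 overlap between groups, and SHMT1 lies above its control values.

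The entry enzyme of serine synthesis stood apart from the other enzymes of the same pathway. PHGDH, which oxidizes 3-phosphoglycerate and commits carbon to serine, had 62.7 and 40.2 TPM in GD-07 libraries, against 132.0 and 113.3 TPM in control libraries. Both GD-07 libraries were therefore lower than either control, and GD-07 replicate 2 was the lowest. The mean was 51.4 ± 15.9 TPM with GD-07 and 122.6 ± 13.2 TPM in controls (SD, n = 2 each), or 41.9% of the control level. The log2 fold change, with limma's standard error, came to -1.27 ± 0.21 (limma adjusted p = 0.0214), which ranked 113 of 13063 genes by p. Without GD-07 replicate 2 it was -0.95, where the lone GD-07 library gives no spread of its own. It was -1.23 after mitochondrially encoded genes and the most abundant entry were left out of the total (limma adjusted p = 0.0281). With no filter on low values the call ended (limma adjusted p = 0.222). PHGDH (ENSG00000092621) spans chr1:119648411-119744226 on the plus strand in GENCODE 29 on GRCh38, with no overlapping gene.

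PSAT1, the aminotransferase of the middle step, was the most abundant of the 9 in every library. It had 308.0 and 398.2 TPM with GD-07, against 336.5 and 304.7 TPM in controls, so the groups overlapped and GD-07 replicate 2 was the highest. Its log2 fold change was 0.13 ± 0.17 (limma adjusted p = 0.675), and it was -0.06 when GD-07 replicate 2 was left out and 0.31 when replicate 1 of GD-07 was. PSPH, the phosphatase that completes serine, had 59.4 and 57.6 TPM with GD-07, against 55.5 and 51.3 TPM in controls. These groups lay close together without overlapping, and the log2 fold change was 0.13 ± 0.14 (limma adjusted p = 0.620). The pseudogene PSPHP1, a copy of PSPH that also lies on chromosome 7, was listed at 38.0 and 29.7 TPM with GD-07, against 28.5 and 26.6 TPM in controls. Reads may be split between PSPH and this copy, so the level of PSPH is uncertain. Their sum was 97.5 and 87.3 TPM with GD-07, against 84.0 and 77.9 TPM in controls.

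The ratio of PSAT1 to PHGDH was not among the planned ratios. It largely restates the fall of PHGDH, since PSAT1 overlapped between groups, and is not a separate result. PSAT1 was 4.91 and 9.91 times as abundant as PHGDH in GD-07 libraries, against 2.55 and 2.69 times in control libraries. The control ratios were nearly equal, while the GD-07 ratios differed from each other by more than the controls differed from GD-07 replicate 1. The summed level of the 3 enzymes was 430.1 and 495.9 TPM with GD-07, against 524.0 and 469.3 TPM in controls. That sum overlapped between groups, and PSAT1 made up most of it. No test of a single ratio or sum over 2 libraries against 2 can give an exact two-sided permutation p below 0.333, so these are descriptions.

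Of the mitochondrial enzymes the one that fell was MTHFD2, the dehydrogenase and cyclohydrolase that follows SHMT2 and is low in most adult tissues. MTHFD2 had 114.7 and 85.5 TPM in GD-07 libraries, against 249.7 and 170.2 TPM in control libraries. The groups did not overlap, although the controls differed from each other more widely than the GD-07 libraries did. The mean was 100.1 ± 20.7 TPM with GD-07 and 210.0 ± 56.2 TPM in controls (SD, n = 2 each), or 47.7% of the control level. Its log2 fold change was -1.05 ± 0.21 (limma adjusted p = 0.0325). The call ended without control replicate 1, the higher control, where it was -0.78 (limma adjusted p = 0.0837). It also ended under quantile normalization (limma adjusted p = 0.0501), without limma's intensity trend (0.0627) and with no filter on low values (0.239). MTHFD2 (ENSG00000065911) spans chr2:74198562-74217565 on the plus strand, and its end overlaps the opposite-strand gene SLC4A5, which was at 2.45 to 3.35 TPM. Strand use in the counting is not given in the sources used here. Its pseudogene copy MTHFD2P1 was listed at 1.47 and 0.699 TPM with GD-07, against 0.470 and 1.06 TPM in controls.

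The other mitochondrial enzymes had smaller differences, none of which passed with all 4 libraries. SHMT2, which makes glycine and the folate-bound carbon unit from serine, had 150.5 and 127.7 TPM with GD-07, against 192.0 and 170.2 TPM in controls. Both GD-07 libraries were lower than both controls, and the log2 fold change was -0.38 ± 0.15 (limma adjusted p = 0.167). It passed without GD-07 replicate 1, at -0.50 (limma adjusted p = 0.0306). MTHFD1L, which splits formyl-folate to formate for export, had 27.8 and 29.2 TPM with GD-07, against 33.4 and 36.1 TPM in controls. The groups did not overlap, and the log2 fold change was -0.27 ± 0.15 (limma adjusted p = 0.301). ALDH1L2, which oxidizes formyl-folate to carbon dioxide with production of NADPH, had 10.4 and 16.4 TPM with GD-07, against 16.7 and 10.6 TPM in controls. Each group held a high and a low library, and the log2 fold change was -0.02 ± 0.27 (limma adjusted p = 0.976). ALDH1L2 overlaps the opposite-strand gene C12orf45, which was at 29.7 to 34.8 TPM, so its low values are uncertain where strand was not used. The summed level of the 4 mitochondrial enzymes was 303.5 and 258.9 TPM with GD-07, against 491.8 and 387.1 TPM in controls. MTHFD2 made up most of the mean difference of -158.3 TPM, with means of 100.1 TPM with GD-07 and 210.0 TPM in controls. The sum of the cytosolic SHMT1 and MTHFD1 was 44.0 and 48.1 TPM with GD-07, against 41.3 and 40.3 TPM in controls.

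The cytosolic enzymes did not share a direction. SHMT1, the cytosolic counterpart of SHMT2, had 39.6 and 40.3 TPM with GD-07, against 32.1 and 31.7 TPM in controls. Replicates agreed closely in both groups and the groups did not overlap, yet the log2 fold change of 0.32 ± 0.15 did not pass (limma adjusted p = 0.224). It stayed between 0.29 and 0.40 under all 14 alternatives tried. MTHFD1, the trifunctional enzyme that turns formate into the folate forms used for nucleotides and methionine, had 4.42 and 7.82 TPM with GD-07, against 9.22 and 8.66 TPM in controls. It was the least abundant of the 9 in every library, and GD-07 replicate 1 was lowest. Its log2 fold change was -0.52 ± 0.25 (limma adjusted p = 0.232), and ranged from -0.88, with GD-07 replicate 2 left out, to -0.17, with replicate 1 of GD-07 left out. MTHFD1 overlaps the opposite-strand gene ZBTB25, at 4.08 to 5.74 TPM, which is close to its own level. That level is low for an enzyme that dividing cells generally express well, and how transcripts were combined per symbol is not given in the sources used here, so its rank and its ratios to other enzymes are uncertain.

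**Figure D2:**
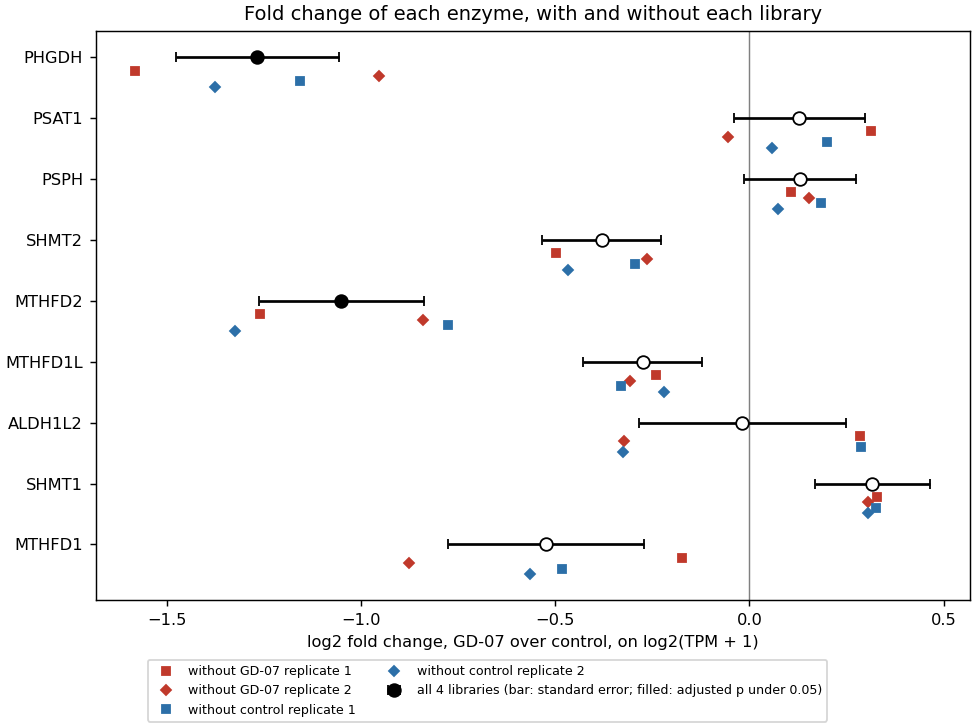
Log2 fold change of each enzyme, GD-07 over control, on the log2(TPM + 1) scale (x axis). Black circles with limma standard errors use all 4 libraries and are filled where the adjusted p is under 0.05; small symbols leave out 1 library each, red for GD-07 and blue for control. PHGDH and MTHFD2 stay below -0.7 whichever library is left out, and PSAT1 and ALDH1L2 change sign.

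Setting the compartments side by side, SHMT2 was 3.80 and 3.17 times as abundant as SHMT1 in GD-07 libraries, against 5.98 and 5.38 times in control libraries. These ratios did not overlap, and the mean difference was -0.71 on the log2 scale. Within the mitochondria, MTHFD2 was 4.12 and 2.92 times as abundant as MTHFD1L with GD-07, against 7.48 and 4.71 times in controls. These ratios did not overlap either, but they do not compare compartments. They were not planned and hold MTHFD2, which was already called lower. Between compartments, MTHFD2 over MTHFD1 was 26.0 and 10.9 with GD-07, against 27.1 and 19.7 in controls, which overlapped, with MTHFD1 low in GD-07 replicate 1. MTHFD1L over MTHFD1 was 6.31 and 3.74 with GD-07, against 3.62 and 4.17 in controls. This ratio overlapped too, and its mean difference of 0.32 on the log2 scale went the other way. The order of levels with GD-07 was PSAT1, SHMT2, MTHFD2, PSPH, PHGDH, SHMT1, MTHFD1L, ALDH1L2 and MTHFD1 by the mean. In controls it was PSAT1, MTHFD2, SHMT2, PHGDH, PSPH, MTHFD1L, SHMT1, ALDH1L2 and MTHFD1. Some neighbours in these orders were not separated. MTHFD2 and SHMT2 were both at 170.2 TPM in control replicate 2. PSPH lay below PHGDH in GD-07 replicate 1 and above it in GD-07 replicate 2. As a share of the summed level of the 9, PHGDH made up 8.06% and 5.01% with GD-07, against 12.5% and 12.6% in controls. MTHFD2 made up 14.8% and 10.6% with GD-07, against 23.6% and 19.0% in controls.

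**Figure D3:**
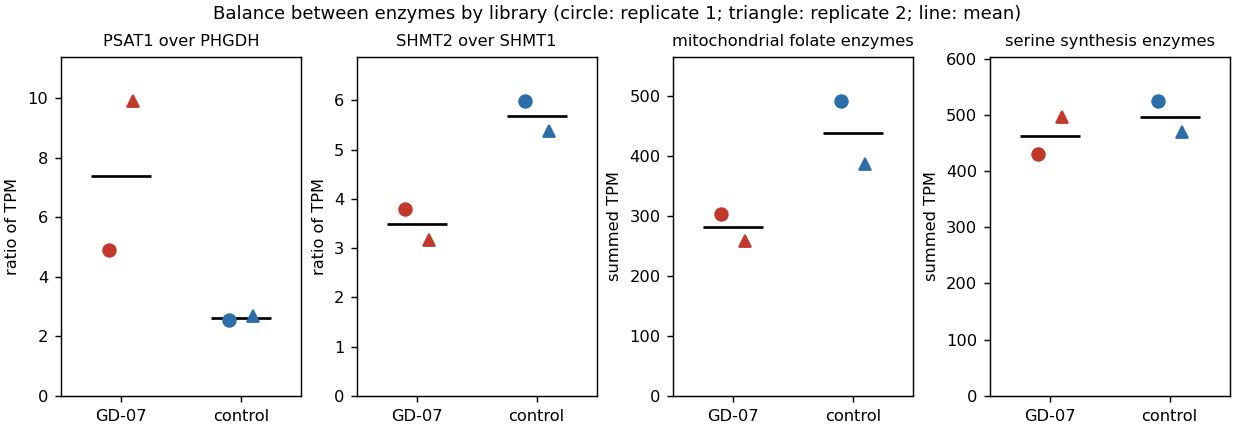
Ratios of TPM and summed TPM (y axes, from 0) in 2 GD-07 libraries (red, left) and 2 control libraries (blue, right), with the group mean as a line. The PSAT1 to PHGDH ratio is higher and the SHMT2 to SHMT1 ratio lower in both GD-07 libraries. The mitochondrial sum is lower, and the serine synthesis sum overlaps. The ratios of MTHFD2 and of MTHFD1L to MTHFD1, which overlapped between groups, are not drawn.

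Neighbouring pathway genes were read from lists of folate genes, serine and glycine genes, and methionine and transsulfuration genes. None of their tested members passed limma's adjusted threshold. At an unadjusted p under 0.05, 14.7% of all genes tested were lower and 10.1% higher, and 53.8% of all genes had a negative log2 fold change. Of 16 other folate genes, 3 were lower and 2 higher at an unadjusted p under 0.05, and the median log2 fold change was 0.00. SLC19A1, the reduced folate carrier of the plasma membrane, had 9.63 and 9.54 TPM with GD-07, against 18.1 and 15.4 TPM in controls. Its log2 fold change of -0.74 ± 0.18 lay just outside the threshold (limma adjusted p = 0.0504). It passed at a minimum of 5 TPM (limma adjusted p = 0.0351), under median-ratio scaling (0.0371) and under quantile normalization (0.0415). It also passed with replicate numbers crossed as a block, chosen after seeing the data (0.00481). The other settings with all 4 libraries did not pass, such as leaving out mitochondrially encoded genes and the top entry (limma adjusted p = 0.0853). With 1 library left out the log2 fold change of SLC19A1 ran from -0.85 to -0.63. For GART, a purine synthesis enzyme that uses formyl-folate, the log2 difference was -0.46 ± 0.14 (limma adjusted p = 0.0912).

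Of 21 genes of serine and glycine use and transport, 4 were lower and 4 higher at an unadjusted p under 0.05, with a median of -0.06. SDSL, which resembles serine dehydratase, had 58.1 and 43.2 TPM with GD-07, against 28.0 and 34.0 TPM in controls (limma adjusted p = 0.0680). SRR, which makes D-serine, had 20.5 and 16.5 TPM with GD-07, against 29.3 and 28.4 TPM in controls (limma adjusted p = 0.0689). Of 12 methionine and transsulfuration genes, 11 had negative values, 5 were lower and 1 higher at an unadjusted p under 0.05, and the median was -0.45. MAT2A, which makes the methyl donor S-adenosylmethionine, had 75.5 and 69.2 TPM with GD-07, against 123.7 and 100.8 TPM in controls (limma adjusted p = 0.0533). MTRR, which reactivates methionine synthase, had 17.9 and 14.6 TPM with GD-07, against 31.3 and 23.1 TPM in controls (limma adjusted p = 0.0733).

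The ATF4 programme, which is known to include serine synthesis and mitochondrial folate genes, was split. Of its 26 tested genes, 3 rose, 3 fell and 20 did not pass at an adjusted p under 0.05, with a median log2 fold change of 0.00. At that threshold 2.02% of all genes tested were higher and 3.19% lower. DDIT3, the stress factor CHOP, had 82.8 and 83.3 TPM in GD-07 libraries, against 31.0 and 32.7 TPM in control libraries, a log2 difference of 1.36 ± 0.14 (limma adjusted p = 0.0106). ATF5, a related transcription factor, rose by 1.12 ± 0.14 in log2 units (limma adjusted p = 0.0127). CHAC1, which degrades glutathione, rose by 0.75 ± 0.15 in log2 units (limma adjusted p = 0.0306). Its call ended when either control library was left out (limma adjusted p = 0.0768 without the first and 0.0947 without the other) and without limma's trend (0.0584). The 3 that fell were aminoacyl-tRNA synthetases, among 6 in the list. AARS, for alanine, had 126.6 and 135.4 TPM with GD-07, against 230.5 and 220.0 TPM in controls, a log2 difference of -0.78 ± 0.14 (limma adjusted p = 0.0241). WARS and GARS, for tryptophan and glycine, fell by 0.78 and 0.79 in log2 units (limma adjusted p = 0.0276 and 0.0476). None of these 3 passed without control replicate 1 or without limma's trend, and GARS lost its call in 7 of 14 alternatives, the other scalings and a pseudocount of 0.1 TPM included. All 6 calls of the list ended with no filter on low values. The other synthetases of the list did not pass. EPRS had 143.7 and 154.3 TPM with GD-07, against 103.7 and 113.4 TPM in controls (limma adjusted p = 0.0923). SARS had a log2 difference of -0.04 and NARS one of -0.48 (limma adjusted p = 0.895 and 0.148). ATF4 mRNA itself had 32.9 and 37.6 TPM with GD-07, against 48.8 and 43.7 TPM in controls (limma adjusted p = 0.172). CHAC1, AARS, EPRS, SARS, NARS and ATF4 were named after their values were seen.

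**Figure D4:**
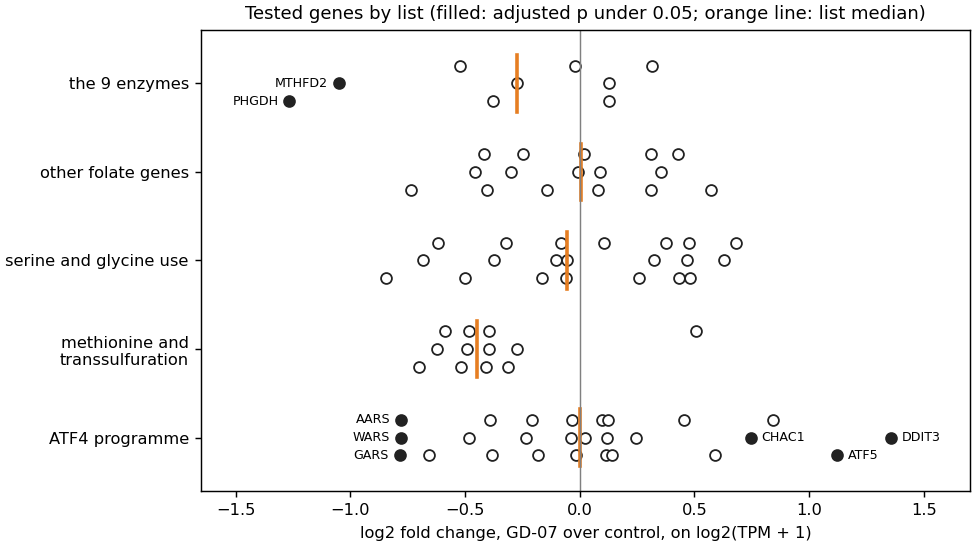
Log2 fold change, GD-07 over control, on the log2(TPM + 1) scale (x axis) of every tested gene in the 9 enzymes and 4 neighbouring lists (rows), with list medians in orange and genes at an adjusted p under 0.05 filled and named. Among the 9 enzymes PHGDH and MTHFD2 are filled, and in the ATF4 programme 3 genes are filled on each side.

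The genes whose profile over the 4 libraries lay nearest to PHGDH, by root mean square distance of log2(TPM + 1) values centred on each gene's mean, were RP11-348H3.5, SORD and NLE1, at distances of 0.096, 0.10 and 0.11. RP11-348H3.5 is a low entry, at 0.847 and 0 TPM with GD-07, against 2.36 and 1.95 TPM in controls. SORD, sorbitol dehydrogenase, had 16.7 and 9.57 TPM with GD-07, against 29.6 and 29.6 TPM in controls. Among the 3 nearest to MTHFD2 were ZC3H11A and RNF207, at distances of 0.053 and 0.063. RNF207 had 12.3 and 8.99 TPM with GD-07, against 29.8 and 20.9 TPM in controls. Within the 9 enzymes the distance between PHGDH and MTHFD2 was 0.18, wider than that between SHMT2 and MTHFD1L at 0.16 or between PSPH and SHMT1 at 0.10. With 4 libraries such nearness is a description only.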

How the data were processed

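The authors deposited TPM per gene symbol for 4 libraries. Per the labels' protocols, mRNA was enriched with oligo(dT) beads and read from both ends. The tools limma 3.60.4, kallisto and Subread, and GRCh38 as build, are named per the submitters' processing notes. Their roles, the strand setting and the rule for combining transcripts are not stated in those notes as given. The groups follow the labels. Genes averaging 1 TPM or more (13063) were transformed as log2(TPM + 1) and compared with limma 3.58.1 in R 4.3.3 (eBayes with an intensity trend, two-sided, Benjamini-Hochberg over all genes tested, threshold 0.05). This scale understates changes of low genes. Named genes are the 9 enzymes, MYC, in each neighbouring list up to 4 genes past the threshold or the 2 with the smallest p, and the 3 nearest profiles to PHGDH and to MTHFD2. A gene that this rule takes is not reported here, and 6 further genes of the ATF4 list were named after their values were seen. Marker, overlapping and pseudogene values were added as checks. The members and lists were chosen with earlier results of these data known. The procedure was tested on simulated data. Gene positions are from GENCODE 29. Alternatives covered pseudocount, filter, scaling, trend, replicate block and leaving out each library.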

Additional observations from a re-analysis of the deposited data

How the results depend on the processing

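Of the 9 enzymes, PHGDH kept its call under 13 of 14 alternatives and MTHFD2 under 10, and 5 results ended a call, 2 gained one and 6 changed sign. The 14 include the crossed replicate block, chosen after seeing the data, and the fits with 1 library left out, so they are not independent checks. ALDH1L2 turned to 0.013 under median-ratio scaling and 0.035 under quantile normalization. For ALDH1L2 it was 0.014 after mitochondrially encoded genes and the top entry were left out. With 1 library left out it ran from -0.33 to 0.29, and PSAT1 from -0.056 to 0.31. In those fits, where the lone library is assumed to vary like the other group, 1 to 3 of the 9 were lower, the 1 being without control replicate 1 and the 3 without GD-07 replicate 1. Over all genes 160 to 1343 were then lower and 150 to 874 higher, the folate list had 0 to 2 lower and 0 to 1 higher, the serine and glycine list 0 to 3 and 0 to 2, the methionine list 0 to 3 lower, and the ATF4 list 0 to 5 lower and 2 to 6 higher. With no filter on low values limma called 0 of 26773 genes, in the 9 enzymes and the ATF4 list too (smallest adjusted p = 0.219, 3970 at an unadjusted p under 0.05). A minimum of 5 TPM gave 1 folate gene lower, 1 serine and glycine gene in each direction and 2 methionine genes lower. Median-ratio scaling and quantile normalization each gave 1 folate gene lower, and 1 of the 9 enzymes was lower under quantile normalization. Without limma's trend 1 of the 9, 0 ATF4 genes and 227 of all genes were lower and 158 higher. Leaving out mitochondrially encoded genes and the top entry gave 245 lower and 171 higher. The cause was not tested.

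Replicate numbers gave no evidence that same-numbered libraries were paired, since their deviations correlated at -0.28 across genes. Deviations of unlike-numbered libraries therefore tended to go together, and the cause was not tested. With the number as a replicate block 2 of the 9 were lower, with 592 lower and 320 higher over all genes, 2 serine and glycine genes lower and 1 higher, and 1 methionine gene lower. With the numbers crossed, a block chosen after seeing the data, 3 of the 9 were lower, 1736 and 1198 genes were lower and higher, and the lists had 2 and 2 (folate), 4 and 4 (serine and glycine), 5 and 1 (methionine) and 6 and 6 (ATF4). TPM holds no depth, so counting error could not be weighed.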
